A study of Mus musculus with 5 samples.

Results

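The barcodes described here are those of 1 droplet single-cell RNA library, named NS, split by how many transcripts of Zfp42 they held. Zfp42 encodes REX1, a zinc finger protein of naive pluripotency. A barcode is the tag shared by all RNA captured in 1 droplet, and a unique molecular identifier (UMI) marks 1 captured transcript. Barcodes with at least 3 raw Zfp42 UMIs were called Zfp42-rich, and barcodes with 0 were called Zfp42-free. There were 1379 rich and 3076 free barcodes, 4455 together, among the 10000 of NS and the 49074 kept in the whole series. The other 5545 NS barcodes held 1 or 2 Zfp42 UMIs. The members were thus chosen by their measured Zfp42 counts, and the Zfp42 levels of the classes are a description, not a result. The cells were of the mouse embryonic stem line REX-1 RFP, whose red fluorescent protein is driven by the Rex1 promoter. Those of NS were cultured with leukaemia inhibitory factor (LIF) and no sorbitol for 72 h. The other libraries were ND, without LIF for 72 h, and S200, S250 and S300, with LIF and 200, 250 and 300 mM sorbitol, a sugar alcohol that raises osmolarity, for 72 h. The labels do not spell out NS and ND, and do not say whether the line is a single clone. The design has single replicates, so both classes come from 1 library, barcodes are not replicates, and no p-value is given.

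In mouse embryonic stem cells kept in serum and LIF, REX1 is known to be unevenly expressed. REX1-positive cells resemble the naive inner cell mass, and REX1-low cells lie closer to the primed epiblast. Naive pluripotency rests on a network in which OCT4 (Pou5f1) and SOX2 act together with NANOG, ESRRB and the Krüppel-like factors, some of them induced by LIF through STAT3. The Rex1 promoter is a common reporter because it is switched off early when cells leave this state. No feature for the fluorescent protein was found among the genes used, so the split rests on the endogenous transcript.

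The windows before the Zfp42 and Nanog start sites are shown because Zfp42 sets the split and supplies the reporter's promoter, and Nanog is its companion in the naive network. Each is the 250 bases upstream of the start site, 5′ to 3′, from RefSeq on GRCm38.p6, the mm10 build. Zfp42 lies at chr8:43307010-43307259 on the minus strand and Nanog at chr6:122707239-122707488 on the plus strand. Capitals mark exact matches to the octamer ATTTGCAT, a motif bound by OCT4, or to the Sox core CATTGT, each read on both strands. How much of this stretch the reporter carries is not given in the sources used here.
Zfp42: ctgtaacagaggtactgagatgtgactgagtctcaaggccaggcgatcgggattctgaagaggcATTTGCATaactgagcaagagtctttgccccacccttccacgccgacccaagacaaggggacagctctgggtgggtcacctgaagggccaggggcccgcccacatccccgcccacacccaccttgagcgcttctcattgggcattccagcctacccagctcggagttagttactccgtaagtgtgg
Nanog: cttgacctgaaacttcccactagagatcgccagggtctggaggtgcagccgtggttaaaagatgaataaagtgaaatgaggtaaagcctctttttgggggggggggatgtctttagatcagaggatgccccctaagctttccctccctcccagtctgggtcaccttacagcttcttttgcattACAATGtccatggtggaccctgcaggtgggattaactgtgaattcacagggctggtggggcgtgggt

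The Zfp42 window held 1 octamer, beginning 186 bases before the start site, and the Nanog window held 1 Sox core and no exact octamer. Just before its Sox core the Nanog window reads ttttgcat, which differs from the octamer only in its first base. Only exact matches were counted, so absence of the octamer here is not absence of an OCT4 site. Of 32851 upstream windows of this length, 1.60% held the octamer and 10.7% the Sox core. None of the 12 genes that led the higher side of the comparison given further on, and none of the 8 matched genes that led the lower side, held the octamer in this window. CACCC, the core of sites bound by Krüppel-like factors, was in 52.0% of all windows, 3 times in that of Zfp42, and in at least 1 window of 5 of the 12 higher and 5 of the 8 lower genes. A match is only a run of letters, and genes with several start sites have several windows.

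The 2 classes were filled nearly as counting alone would fill them. Zfp42 (ENSMUSG00000051176; mm10 chromosome 8, 43295063 to 43306980) had 12448 UMIs in NS, a mean of 1.24 per barcode and at most 8. If every barcode drew from 1 common profile at its own depth, 2918 barcodes would hold 0 Zfp42 UMIs, and 3076 did. For 1 UMI the formula gave 3560 barcodes against 3465 observed, and for 2 UMIs 2202 against 2080. At 3 UMIs, just inside the rich class, it gave 923 against 899. For 4 or more it gave 397, and 480 were observed, 1.21 times as many. So both ends were overfilled and the middle underfilled, by small amounts, and most Zfp42-free barcodes are ones that 1 common profile would also leave at 0. The class is therefore a class of barcodes in which Zfp42 was not captured, which is not the same as cells that lack it.

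**Figure D1:**
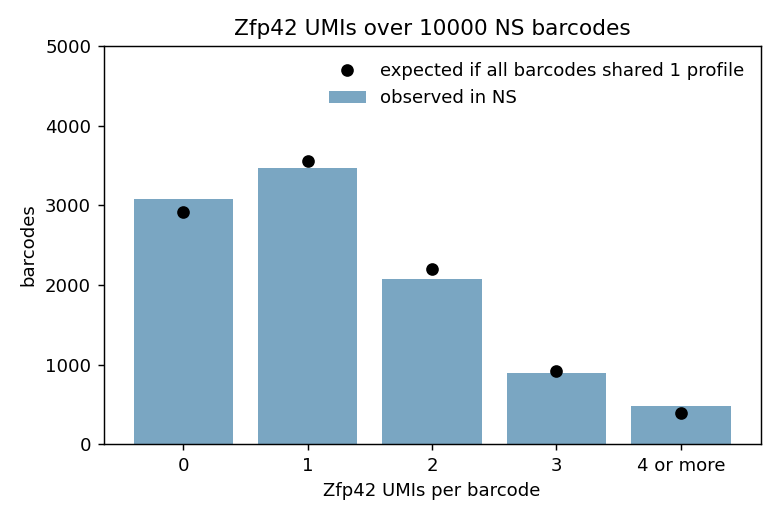
Number of NS barcodes (vertical axis) with 0, 1, 2, 3 and 4 or more Zfp42 UMIs (bars), beside the number expected from 1 shared profile at each barcode's depth (black points). The bars follow the points closely, with 3076 against 2918 at 0 UMIs and 480 against 397 at 4 or more.

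The variance of Zfp42 over barcodes was 1.10 times the 1-profile expectation. Over the 5233 genes that averaged 0.05 UMIs or more the median was 1.01, and 187 genes, 3.57%, lay above Zfp42. Among 86 genes whose mean lay within 0.32 of its own on the log2 scale, the ratio ran from 0.98 to 1.37, and 13 were above Zfp42, among them Ifitm1 (1.22), an interferon-inducible membrane protein gene, and Hspd1 (1.15), the mitochondrial chaperone HSP60. Zfp42 was thus more unevenly spread than most genes and still far from the nuclear RNA Malat1 (7.58) or the imprinted RNA H19 (3.16).

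The classes differed a little in depth and make-up. Zfp42-free barcodes had a median of 2096 UMIs and 1087 genes, and Zfp42-rich ones 2211 UMIs and 1137 genes, so levels are given as CPM, UMIs per 1000000 UMIs other than those of Zfp42. Mitochondrially encoded genes took 4.03% of UMIs in free and 3.91% in rich barcodes, and ribosomal protein genes 28.1% and 27.7%. NS barcodes ranged from 1897 to 6032 UMIs. The summed UMIs were 6650989 in free and 3184731 in rich barcodes. Of the NS barcode sequences, 34 to 49 also occurred in each of the other libraries. The stem cell label held: the 5 defining markers other than Zfp42 (Pou5f1, Sox2, Nanog, Dppa5a and Esrrb) summed to 5876 CPM in rich and 5549 CPM in free barcodes. Most of that was Dppa5a, at 4987 and 4759 CPM. Pou5f1, Sox2, Nanog and Esrrb each lay between 88.9 and 379 CPM in both classes. Markers of other cells were sparse: the fibroblast or feeder list summed to 3.46 and 4.21 CPM with Col3a1, Postn and Dcn at 0 in NS, and the defining primitive endoderm, neuroectoderm, mesoderm, trophoblast and cleavage-stage-like markers, 3 to 6 genes each, summed to at most 14.6 CPM in either class. The measured members of the longer gene lists used further on summed to more: 199.7 and 234 CPM in rich and free barcodes for trophoblast, 288 and 307 for primitive and extraembryonic endoderm, 145 and 124 for neuroectoderm, and 118 and 120.3 for fibroblast and feeder genes. How much free RNA in the droplets contributes to any barcode was not tested, and no doublet caller was run.

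The comparison of rich with free barcodes asks which other transcripts vary with Zfp42 among cells kept in LIF. Zfp42-rich barcodes carried slightly more RNA of the pluripotency-linked genes Klf4, Fgf4, Zfp57 and Nanog, and less of Krt8, a simple-epithelial keratin, and H19. Differences were small. Of 5654 genes with at least 20 CPM over all NS barcodes, 2.6% were higher in rich barcodes by more than 0.32 on the log2 scale and 2.41% lower by more than that, the size used from here on to count genes. Only 2 genes (0.0354%) passed 1.5-fold higher and 7 (0.124%) 1.5-fold lower. Log2 ratios ran from -0.96 to 0.71 with a median of 0.01. Bracketed ranges are 95% intervals from counting error alone, so spread between cells and cultures is not in them.

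Klf4, the LIF-induced Krüppel-like factor (ENSMUSG00000003032; chromosome 4, 55527143 to 55532466), stood at 120 CPM (109 to 133) in rich and 92.9 CPM (85.7 to 101) in free barcodes, a log2 ratio of 0.37 (0.19 to 0.56). Fgf4, the growth factor gene under OCT4 and SOX2 control (chromosome 7, 144847367 to 144865243), stood at 107 against 81.8 CPM, 0.38 (0.18 to 0.58). Zfp57, which encodes a zinc finger protein that protects imprints (chromosome 17, 37001163 to 37010635), stood at 49.7 against 35.5 CPM, 0.49 (0.19 to 0.78). Each of these was about 1.3-fold to 1.4-fold higher, and their class levels do not overlap within the counting intervals. These genes are among the 12 ranked highest by the lower bound of this interval, so the separation partly follows from that ranking. Nanog was 138 against 115 CPM, 0.25 (0.08 to 0.43), short of 0.32. Pou5f1 (275 against 246 CPM, 0.16, 0.04 to 0.28) and Sox2 (379 against 339 CPM, 0.16, 0.06 to 0.27) were closer still. Esrrb, an orphan nuclear receptor of the naive network, was 95.9 against 88.9 CPM, 0.11 (-0.09 to 0.31), and its ratio crossed to the other side in the shallowest tertile of barcodes (-0.23) and with barcodes thinned to 1000 UMIs and compared at 2 or more against 0 Zfp42 UMIs (-0.06).

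The 12 genes that led on the higher side, ranked by the lower bound of the interval, were Klf4, Fgf4 and Zfp57 with 9 others. Intervals off 0 follow from this ranking, and from its counterpart on the lower side, and are given as a description. Platr10, a long non-coding RNA linked to pluripotency (chromosome 3, 75647446 to 75655731), stood at 72.3 against 50.8 CPM, 0.51 (0.26 to 0.76). Chek1, the replication checkpoint kinase, had the highest ratio, 0.71 (0.29 to 1.12), on 89 and 114 UMIs. Uaca (0.64), Rcn2, a calcium-binding protein of the endoplasmic reticulum (0.55), Cul7, a scaffold of ubiquitin ligases (0.53), and Grin1, an NMDA receptor subunit (0.50), followed on 97 to 157 rich-class UMIs each. Fbxo22, an F-box protein (0.42), Trim25, a ubiquitin ligase (0.37), and Pum3, an RNA-binding protein (0.37), had levels from 82.7 to 107 CPM in rich barcodes. None of these 9 belongs to a gene list used here.

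On the lower side the first was Krt8 (ENSMUSG00000049382; chromosome 15, 101996698 to 102004482), at 17.6 CPM (13.3 to 22.9) in rich and 34.3 CPM (30.0 to 39.0) in free barcodes, 1.95-fold lower (log2 -0.96, -1.41 to -0.53). H19, the maternally expressed imprinted RNA (ENSMUSG00000000031; chromosome 7, 142575529 to 142578143), stood at 111 CPM (99.4 to 123) against 180.1 CPM (170.1 to 191), 1.63-fold lower (log2 -0.70, -0.88 to -0.53). Zyx, which encodes the focal adhesion protein zyxin, was at -0.83 (-1.31 to -0.37) on 49 and 182 UMIs, and Eng, the TGF-beta co-receptor endoglin, at -0.65 (-1.04 to -0.27) on 76 and 249. Sdc4, a cell-surface heparan sulfate proteoglycan, was the best counted, 246 against 299 CPM (-0.28, -0.40 to -0.16). Trim11, Asap1, Lmf2, Mre11a, a DNA break repair nuclease, Dlg1, a membrane scaffold, Kdelr2, a receptor that returns proteins to the endoplasmic reticulum, and Ebpl completed the 12, from -0.71 to -0.38. Of the 24 leading genes, 7 have an exon that overlaps an exon of another annotated gene, Krt8, H19, Zyx, Eng, Mre11a, Fbxo22 and Grin1, and the use of strand in counting is not given in the sources used here, so their levels are uncertain to that extent.

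**Figure D2:**
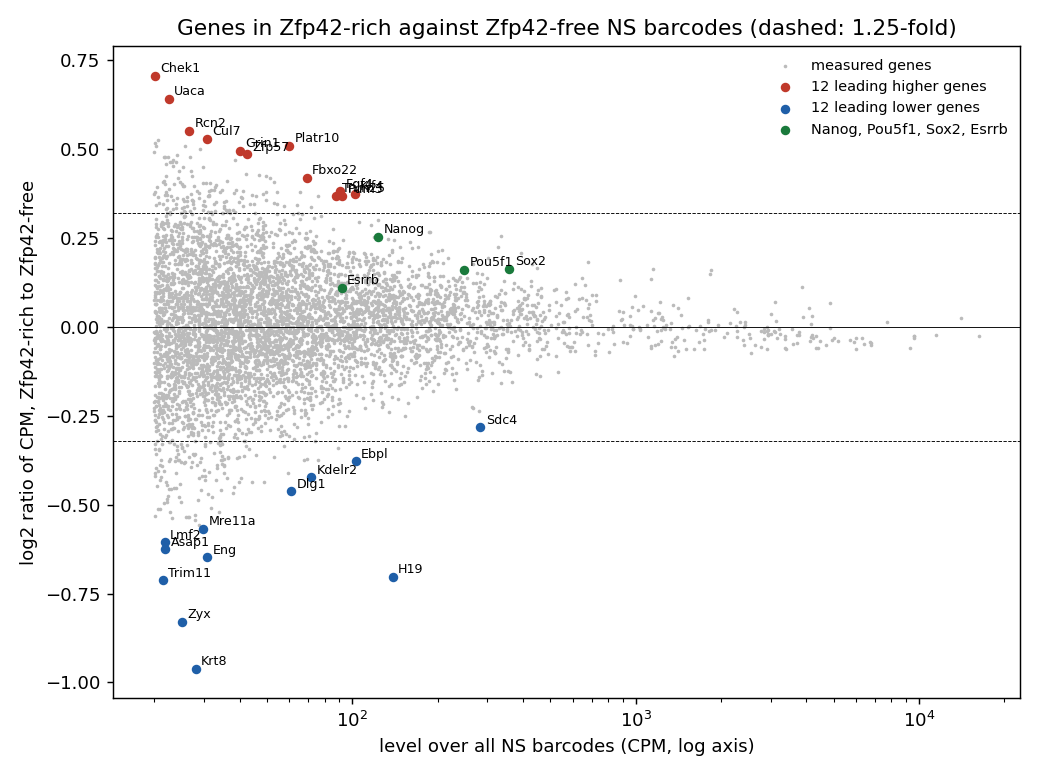
Log2 ratio of CPM in Zfp42-rich to Zfp42-free barcodes (vertical axis) against the level over all NS barcodes in CPM (log axis) for 5654 genes (grey); dashed lines mark 0.32 either side of 0, the 12 leading genes on each side are red and blue, and Nanog, Pou5f1, Sox2 and Esrrb green. The cloud narrows as levels rise, and H19, at -0.70 with 139 CPM over NS, lies well below genes of its level.

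Among the gene lists, naive pluripotency stood furthest to the higher side of those with at least 4 measured members. Of its 20 genes, 18 reached 20 CPM, and of these 16 had a ratio above 0, against 53.1% of all genes (median 0.15, against 0.01 over all genes). Above 0.32 lay 5, against 2.6% of all genes, and below -0.32 lay 0, against 2.41%. The 5 were Zfp57, Fgf4, Klf4, Nr5a2, a nuclear receptor (37.1 against 28.7 CPM, 0.37, 0.03 to 0.71), and Jam2, a junctional adhesion molecule (86.2 against 66.8 CPM, 0.37, 0.15 to 0.59). Tbx3, a LIF-linked T-box factor (0.19), and Spp1, osteopontin (0.21), were also above 0, while Klf2 (0.04), Klf5 (0.05) and Tfcp2l1 (0.06) lay near the median gene. The members below 0 were Fbxo15 (-0.14) and Pecam1 (-0.07). Most measured naive genes were thus slightly higher in rich barcodes. Zfp57, Fgf4 and Klf4 were also picked as leading genes in these same barcodes. Klf4 lay above its relatives Klf2 and Klf5, which were not picked so, and that gap was not tested.

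Core pluripotency genes were above 0 in 10 of 14 (median 0.07) and 0 passed 0.32 in either direction. For this list and those below, the share of all genes above 0 was 53.1%, and 2.6% and 2.41% of all genes passed 0.32 higher and lower. Dppa5a, the most abundant at 4987 against 4759 CPM, was at 0.07 (0.04 to 0.10). DNA methylation and chromatin genes were above 0 in 11 of 15 (median 0.09), with Tet1, a 5-methylcytosine dioxygenase, at 387 against 324 CPM (0.26, 0.15 to 0.36) and its relative Tet2, the 1 member past 0.32, at 37.1 against 28.3 CPM (0.39, 0.05 to 0.73). The Tet2 ratio turned to -0.33 in the deepest tertile of barcodes. LIF and STAT3 responsive genes were above 0 in 8 of 11 (median 0.08), with Socs3, the feedback inhibitor, at 0.24 (-0.08 to 0.55), and Jak1, the kinase of the LIF receptor, at -0.25 (-0.50 to -0.01), which turned to 0.06 in the middle tertile. Junb, an immediate early gene, was the 1 member past -0.32, at -0.38. The list's median lay below 0 in the deepest tertile (-0.03) and with thinned barcodes at 2 or more against 0 Zfp42 UMIs (-0.10). Of 23 formative and primed genes, 7 reached 20 CPM and these 7 were above 0 (median 0.08), led by Spry4, an inhibitor of ERK signalling (0.35, 0.05 to 0.64), and Otx2 (0.35, -0.08 to 0.76). Zfp42-free barcodes thus held no higher level of any of these 7 in this split. With at least 2 against 0 Zfp42 UMIs in NS, 4 of 7 were above 0. Fgf5, the classical marker of the formative state, had 0 UMIs in rich and 3 UMIs in free barcodes, too few to compare.

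The lists whose medians lay furthest below 0 had few measured members. Trophoblast-linked genes were above 0 in 1 of 5 measured (median -0.19), led by Krt8, with Krt18, its keratin partner, at 26.7 against 31.9 CPM (-0.25, -0.63 to 0.12) and Krt19 at -0.19 (-0.42 to 0.03). Imprinted genes were above 0 in 2 of 8 (median -0.16), led by H19, then Peg10 (-0.23, -0.50 to 0.03) and Impact (-0.22, -0.40 to -0.04). Of 4 primitive and extraembryonic endoderm genes measured, 1 was above 0 (median -0.17), and Col4a1, a basement membrane collagen, stood at 28.0 against 38.5 CPM (-0.46, -0.82 to -0.11). The germline list went both ways: the homeobox genes Rhox9 (77.4 against 97.9 CPM, -0.34, -0.56 to -0.13) and Rhox6 (-0.19, -0.36 to -0.01) were lower, and Rhox5 (0.27, 0.04 to 0.49) and Stra8, a gene of meiotic entry (0.27, 0.01 to 0.54), higher. The Rhox5 ratio turned to -0.10 in the deepest tertile. Rhox genes are close paralogs, so reads may be split between them. Hand1, the 1 measured streak and mesoderm gene and a factor also of trophoblast, was at 23.3 against 31.1 CPM (-0.42, -0.82 to -0.03).

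Housekeeping and cell cycle genes differed little between the classes. Ribosomal protein genes were above 0 in 15 of 76 (median -0.02) and mitochondrially encoded ones in 3 of 13 (median -0.03), against 53.1% of all genes. Both lists thus leaned to the lower side, by small amounts. The log2 ratios of their summed levels were -0.025 (-0.028 to -0.021) and -0.046 (-0.056 to -0.036). In both lists 0 members passed 0.32 in either direction. Glycolysis (17 genes), nuclear oxidative phosphorylation (19), G2 and M phase (28), ATF4 and integrated stress (16), heat shock and chaperone (14), p53 target (11) and translation factor (17) genes also had 0 members past it, with medians from -0.06 to 0.05. S phase genes had 1 of 27 lower, Chaf1b, a histone chaperone (-0.41), and cholesterol biosynthesis genes 1 of 15 higher, Idi1 (0.44). Chaf1b turned side in the middle tertile of barcodes and Idi1 in the shallowest. Ncl, the abundant nucleolar protein nucleolin, stood out among translation factors at 1948 against 1742 CPM (0.16, 0.12 to 0.21).

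**Figure D3:**
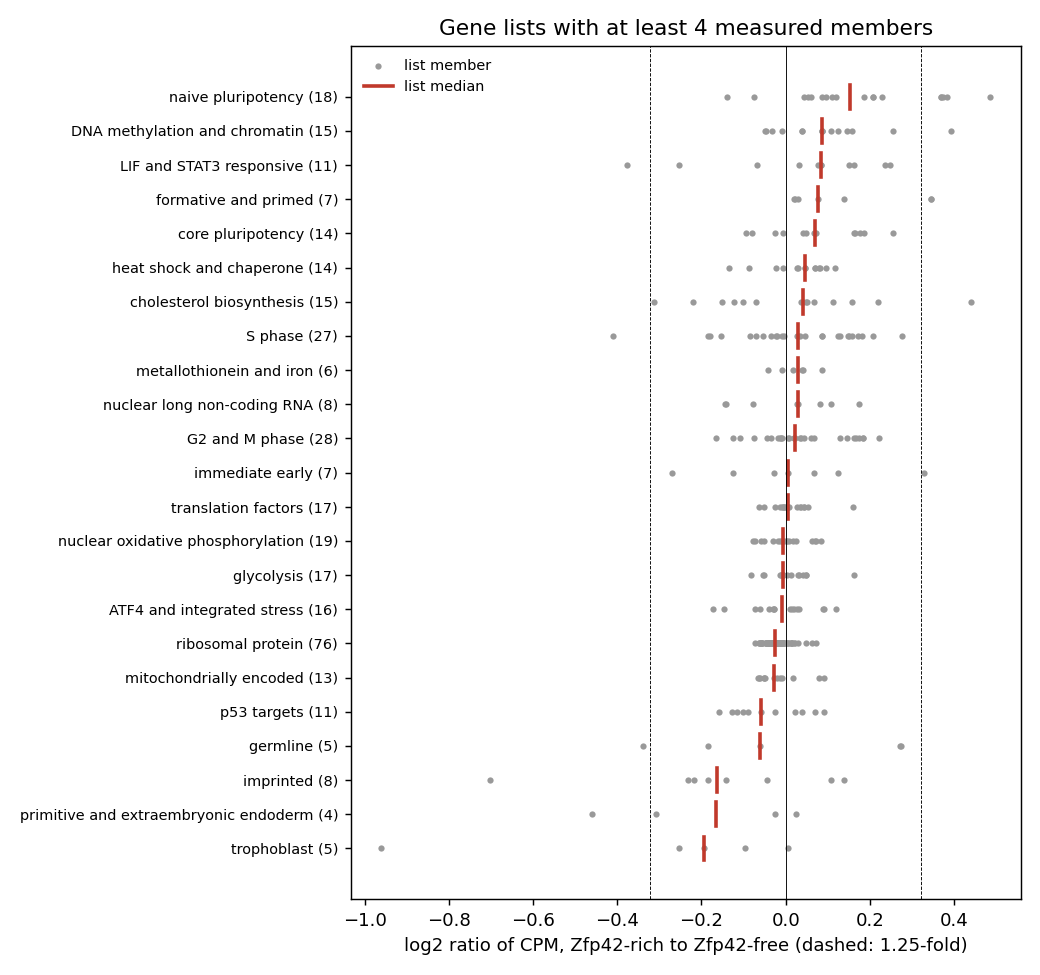
Log2 ratio of CPM in Zfp42-rich to Zfp42-free barcodes for each measured member (grey points) of lists with at least 4 measured members, with the list median in red and the number measured in brackets. Naive pluripotency lies furthest right (median 0.15) and trophoblast furthest left (median -0.19).

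The barcodes with 1 or 2 Zfp42 UMIs took no part in choosing these genes, but those with 0, 3 and 4 or more did. Differences between the outer classes thus follow in part from that choice. Over the 5 classes of 0, 1, 2, 3 and 4 or more Zfp42 UMIs, Klf4 stood at 92.9, 98.8, 108, 111 and 138 CPM, higher at each step. Fgf4 did the same, at 81.8, 86.6, 98.0, 102 and 114 CPM, and so did Nanog, from 115 to 141 CPM. Krt8 was lower at each step, at 34.3, 28.4, 25.4, 19.6 and 14.0 CPM. Rhox9 followed the same order, from 97.9 down to 73.7 CPM. Barcodes with 2 against 1 UMIs alone gave log2 ratios of 0.13 (-0.04 to 0.29) for Klf4 and 0.18 (0.003 to 0.35) for Fgf4. They gave 0.08 (-0.07 to 0.23) for Nanog, -0.16 (-0.50 to 0.17) for Krt8 and -0.09 (-0.27 to 0.10) for Rhox9. Of these intervals only that of Fgf4 left out 0. H19 had another shape: it stood at 180.1 CPM at 0 UMIs and at 126, 121, 107 and 118 CPM beyond, so most of its difference lay between barcodes with and without Zfp42. Pou5f1 was flat up to 2 UMIs (246, 244 and 239 CPM) and higher at 3 and at 4 or more (277 and 272 CPM).

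Of the 12 leading higher genes, 3 were higher at all 4 steps, against 2.21% of all genes, and of the 12 lower genes 1 was lower at all 4, against 1.26%. These counts lean on the outer classes that chose the genes. Barcodes with 2 UMIs against those with 1 are separate: there 9 of the 12 higher genes had a ratio above 0, against 53% of all genes, with a median of 0.08, and 5 of the 12 lower genes had a ratio below 0, against 47%, with a median of 0.01. No leading gene passed 0.32 on its side there, against 1.03% higher and 1.13% lower of all genes. Chek1 (-0.30, -0.71 to 0.09) and Rcn2 (-0.28, -0.62 to 0.05), and on the lower side Mre11a (0.22, -0.09 to 0.53), lay on the other side. Of the naive list, 14 of 18 were above 0 in these barcodes (median 0.08). Trophoblast (1 of 5, median -0.03) and imprinted genes (2 of 8, -0.08) again leaned lower. Core pluripotency (6 of 14, median -0.001) and LIF and STAT3 responsive genes (5 of 11, -0.03) did not lean higher here. Formative and primed genes were above 0 in 4 of 7 (0.002). Primitive and extraembryonic endoderm genes lay on the other side, with 3 of 4 above 0 (0.07).

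**Figure D4:**
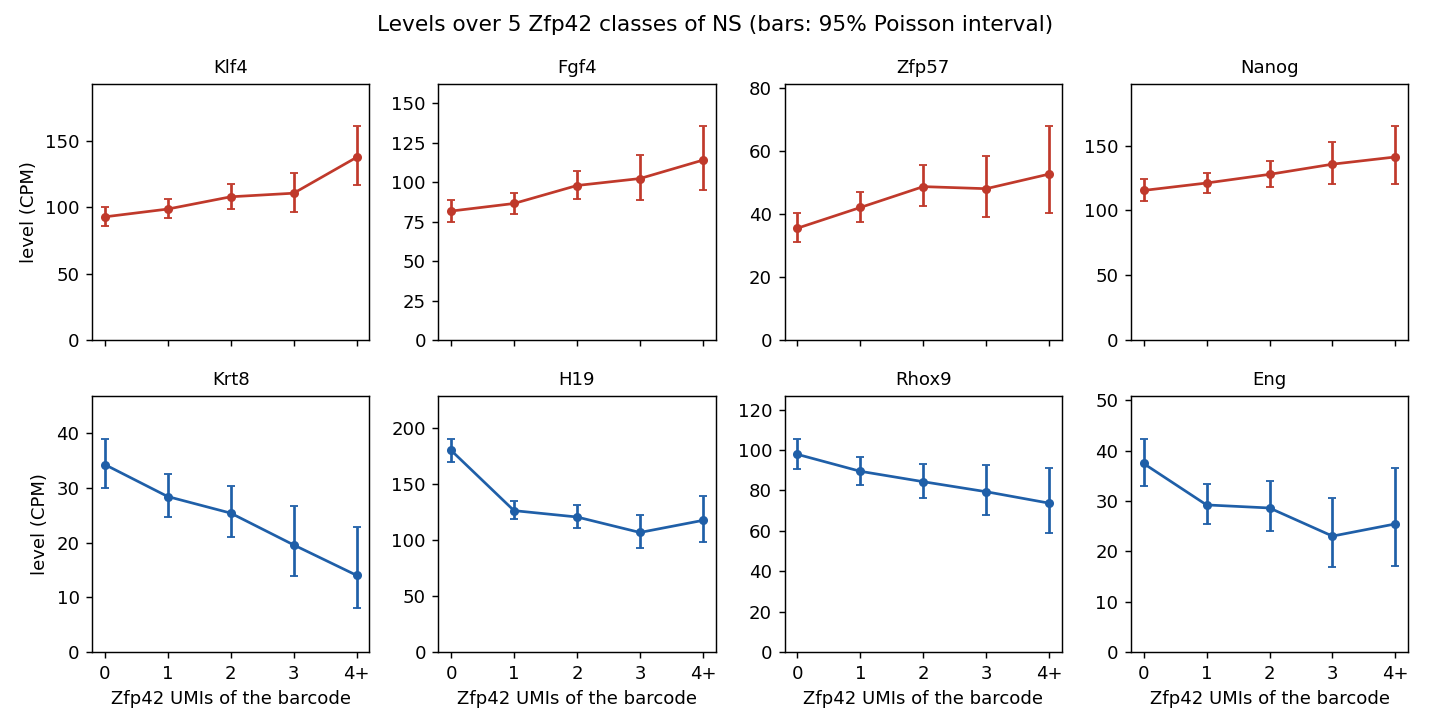
Level in CPM (vertical axes, from 0) of 4 genes higher and 4 genes lower in Zfp42-rich barcodes, over NS barcodes with 0, 1, 2, 3 and 4 or more Zfp42 UMIs; bars are 95% Poisson intervals. Klf4, Fgf4 and Nanog stand higher at each step and Krt8 and Rhox9 lower, while H19 drops from 180.1 to 126 CPM between 0 and 1 UMI and then levels off.

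Part of the H19 UMIs lay in few barcodes, which were looked at after their values were seen. Krt8 was spread more widely, with 228 UMIs in 185 free and 56 UMIs in 54 rich barcodes. At least 5 H19 UMIs were held by 51 of 3076 Zfp42-free barcodes (1.66%, 1.24 to 2.17, exact Clopper-Pearson) and by 5 of 1379 rich ones (0.36%, 0.12 to 0.84), 97 barcodes in all of NS. With every barcode thinned to 1000 UMIs, at least 3 H19 UMIs were held by 1.43% (1.04 to 1.92) and 0.36% (0.12 to 0.84), so the order was the same at equal depth. In those 97 barcodes Zfp42 stood at 365 CPM (288 to 456), against 568 CPM (557 to 579) in the 8188 barcodes without H19. H19 was picked for being lower in Zfp42-rich barcodes of NS, so this is the same link read the other way, not a second result. Krt8 stood at 393 against 22.4 CPM, Krt18 at 265 against 26.6, Rhox6 at 455 against 111, Rhox9 at 270.1 against 77.7 and Hand1 at 109 against 25.4 CPM. Keratins, Rhox genes, Hand1 and H19 were thus high in the same group of barcodes, with UMIs summed over its 97. Whether single barcodes held them together was not tested. Pou5f1 (246 against 252 CPM) and Nanog (118 against 125 CPM) were nearly level there, and Klf4 was at 147 CPM (99.8 to 209) against 105.

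Without these 97 barcodes the lower genes named here kept their side, and H19 and Krt8 changed most in size. H19 went from -0.70 to -0.30 (-0.49 to -0.11), Krt8 from -0.96 to -0.68 (-1.14 to -0.24), and Rhox9 only from -0.34 to -0.31 (-0.53 to -0.09). Hand1 (-0.43) and Col4a1 (-0.48) were as low as with them. Klf4 (0.38) and Fgf4 (0.38) stayed where they were. The barcodes left out were chosen by their H19 UMIs, and 51 were free against 5 rich, so a smaller H19 ratio follows from that choice. Klf4 and Fgf4 took no part in it, so their steadiness is no contrast to H19.

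The same split was applied to the libraries that the choice of genes did not use, with at least 2 Zfp42 UMIs against 0, because these libraries hold medians of 801 to 939 UMIs per barcode. It gave 733 barcodes against 5984 in ND, 907 against 6298 in S200, 1823 against 4840 in S250 and 1693 against 4786 in S300. The variance of Zfp42 over the 1-profile expectation was 1.05, 1.08, 1.06 and 1.04 in these 4 libraries. Krt8 was lower in Zfp42-positive barcodes of S250 (21.2 against 52.9 CPM, log2 -1.32, -1.85 to -0.83) and S300 (17.7 against 42.8 CPM, -1.27, -1.93 to -0.67). In S200 (-0.77, -1.87 to 0.16) and ND (-0.18, -1.29 to 0.77) it lay on the same side on 10 UMIs each. With the same cut NS gave -0.62 (-0.92 to -0.33). The NS barcodes under this cut include those that chose the genes, so the NS values are given only as a description. There the 12 higher genes lay above 0 (54.1% of all genes) and the 12 lower genes below 0 (45.9%), with 8 and 6 past 0.32 (1.1% and 0.672%).

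H19 was lower by the same split in S200 (716 against 997 CPM, -0.48, -0.60 to -0.36), S250 (523 against 972 CPM, -0.90) and S300 (711 against 1063 CPM, -0.58, -0.68 to -0.48), and level in ND (173 against 176 CPM, -0.03, -0.32 to 0.26). Rhox6 stood at -0.39, -0.70 and -0.45 in the sorbitol libraries and at 211 against 212 CPM in ND, and Col4a1 at -0.46, -0.39 and -0.55 with -0.56 in ND, there on 9 UMIs; in S200 the intervals of both reached past 0. With this cut NS gave -0.19 (-0.33 to -0.06) for Rhox6 and -0.21 (-0.47 to 0.04) for Col4a1. H19 was thus lower with Zfp42 in NS, S200, S250 and S300, Rhox6 in NS, S250 and S300, and Col4a1 in S250 and S300. The sorbitol libraries hold far more H19 in all. The gap between libraries in these ratios was not tested.

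Pluripotency-linked genes followed less evenly. Fgf4 was on the higher side in all 4 libraries, at 0.25, 0.19, 0.17 and 0.27 in ND, S200, S250 and S300, and its interval lay above 0 in S300 (0.03 to 0.51). Klf4 stood at 0.36 (-0.30 to 0.96), 0.20 (0.02 to 0.37) and 0.19 (0.07 to 0.31) in ND, S200 and S250, and at -0.12 (-0.27 to 0.02) in S300. Nanog had 0.46 (0.21 to 0.71), 0.34 (0.05 to 0.62) and 0.26 (0.07 to 0.44) in ND, S200 and S250, and -0.17 (-0.42 to 0.08) in S300. Naive list members above 0 numbered 13 of 18 in ND, 10 of 17 in S200, 13 of 18 in S250 and 11 of 18 in S300, with medians of 0.14, 0.03, 0.06 and 0.03, against 49.8%, 49.7%, 50.6% and 49.1% of all genes. The counts in S200 and S300 lie near that share. Core pluripotency genes were above 0 in 10 of 14, 9 of 13, 13 of 14 and 11 of 14 in the same order. Formative and primed genes were above 0 in 2 of 7, 4 of 7, 3 of 7 and 5 of 6, with medians of -0.03, 0.01, -0.003 and 0.12.

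The leading genes as a set recurred in part. Of the measured higher genes, 7 of 11 in ND, 9 of 9 in S200, 6 of 12 in S250 and 7 of 11 in S300 lay above 0, to be read against the same shares of all genes. Of the lower genes, 5 of 10, 7 of 10, 8 of 11 and 8 of 12 lay below 0, against 50.2%, 50.3%, 49.4% and 50.9%. Past 0.32 on the same side were 2, 1, 1 and 0 of the higher genes, against 8.98%, 6.79%, 2.93% and 4.15% of all genes, and 1, 2, 3 and 4 of the lower genes, against 11.1%, 9.39%, 4.68% and 5.95%. Cul7 (-0.57, -0.34, -0.04 and -0.13) lay on the other side in each of these 4 libraries, on 11 to 43 UMIs, and Platr10 did so in S250 (-0.29) and S300 (-0.66). Krt8 and H19 were the leading genes with the widest gaps in S250.

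**Figure D5:**
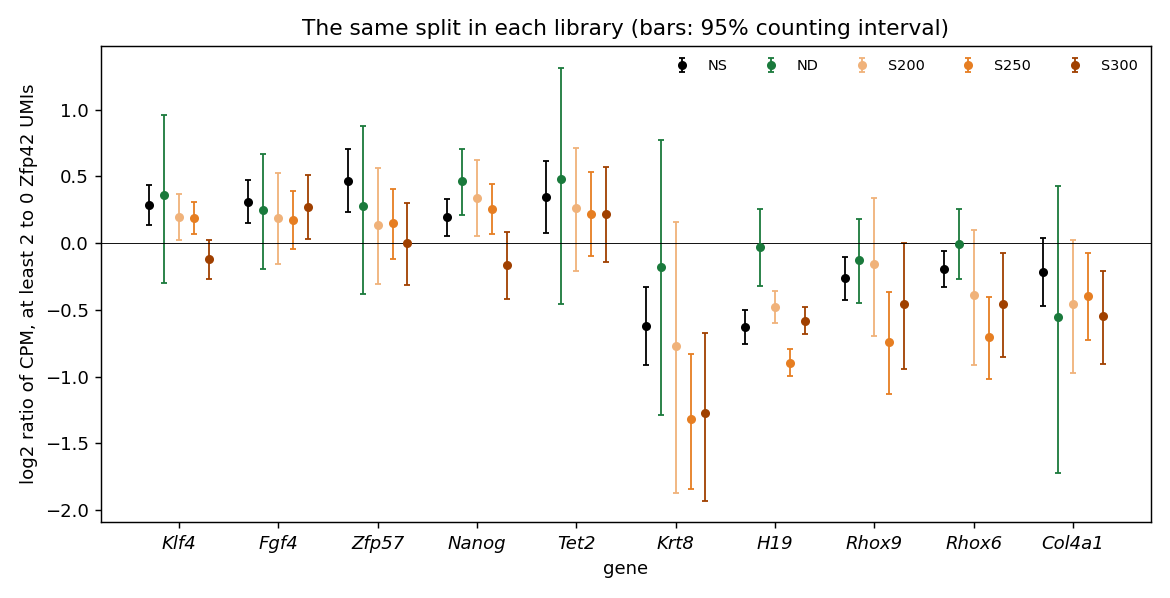
Log2 ratio of CPM in barcodes with at least 2 to barcodes with 0 Zfp42 UMIs for 10 genes in NS, ND, S200, S250 and S300; bars are 95% counting intervals, and the genes shown were chosen after their values were seen. H19 lies below 0 in NS and the 3 sorbitol libraries and at -0.03 in ND, and Fgf4 lies above 0 in all 5.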

How the data were processed

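The deposited files hold raw UMI counts per gene and barcode, made by the authors, whose file headers name Cell Ranger 6.0.1. The submitters' processing notes also name Seurat 4.1.1, R 4.1.2 and mm10. The labels' protocols name Trizol and a Lexogen 3′ kit, which does not describe a droplet library, and the rule that chose 10000 barcodes per library is not given in the sources used here. Barcodes under 500 genes or over 20% mitochondrial UMIs were left out. UMIs were summed per Zfp42 class and scaled to UMIs other than Zfp42, with exact Poisson, conditional binomial and Clopper-Pearson 95% intervals (Python 3.11.15, SciPy 1.17.1). Shuffled labels were not used as a null, because barcodes of 1 library are not replicates; the share of all genes stands in its place. The members and lists were chosen with earlier results of these data known. Genes named were Zfp42, Nanog, Pou5f1, Sox2, Klf4 and Esrrb, the 12 with the highest lower bound and the 12 with the lowest upper bound, leaving out mitochondrial, ribosomal protein and unnamed models, and up to 3 per list with an interval off 0; others are given as list members. Of the listed symbols, Oct6, Zscan4a and Dub1 were not found. All 64 named genes matched GENCODE M21 by ID. The ratio was tested on simulated data.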

Additional observations from a re-analysis of the deposited data

How the results depend on the processing

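Counts of genes past 0.32 on the log2 scale, 147 higher and 136 lower, follow the number of UMIs behind each gene. They were 62 and 38 with at least 2 Zfp42 UMIs as the rich class, 424 and 427 with at least 4, and 373 and 441 with barcodes thinned to 1000 UMIs and compared at 2 or more against 0. Within the lower, middle and upper tertile of depth they were 665 and 759, 601 and 625, and 451 and 426, with fewer barcodes in each. At a minimum of 50 CPM they were 16 and 11, at 10 CPM 365 and 420, and with no minimum 3003 and 2811; at 1.5-fold they were 2 and 7. The variance ratio of Zfp42, 1.10, was 1.03 after thinning, where depth is lower, and from 1.07 to 1.13 in the depth tertiles. Of 819 values of named genes, 18 turned side, in 14 genes. Among them were Chek1 (-0.19), Cul7 (-0.038) and Idi1 (-0.19) in the lower tertile, Chaf1b (0.024) in the middle tertile and Tet2 (-0.33) in the upper tertile. The others were Jak1, Rhox5, Esrrb, Eif1, Malat1, Mt1, Mt2, Nars and Pabpc1, from -0.23 to 0.06; the cause was not tested. Outside the lower tertile, in the other 12 alternatives, the 24 leading genes lay on the same side as reported, as did the medians of the naive, core, imprinted and trophoblast lists in all 13. The alternatives reuse the NS barcodes that chose these genes, so this is largely built in. Barcodes with 2 against 1 Zfp42 UMIs, which did not choose them, kept 9 of the 12 higher and 5 of the 12 lower genes on their side. In those barcodes the core list had 6 of 14 above 0 and a median of -0.001, so its lean was not kept. Klf4 ranged from 0.28 to 0.57, Krt8 from -1.29 to -0.62 and H19 from -0.74 to -0.30. Leaving out each gene's heaviest barcode, and leaving out the barcodes with at least 5 H19 UMIs, were chosen after seeing the data. Leaving out barcodes over 10% mitochondrial UMIs was not run, since NS had 0. With scaling by the median of ratios, each ratio moved by -0.02. No paired analysis was possible because each condition has 1 library.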
